A study of Xenopus laevis with 2 samples.

Results

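The non-collagen matrix proteins and proteoglycans of the tadpole heart were described from 39 transcript rows, for 35 gene symbols, out of 8879 rows in the table. They were chosen by symbol only: fibronectin, laminin and nidogen genes, elastic fibre and microfibril genes, versican with the hyaluronan synthases and link proteins, small leucine-rich proteoglycans, syndecans and glypicans, matricellular genes (thrombospondins, CCN genes, sparc, tgfbi and spondins), matrilins and lect1. The rule itself uses no measured value, but it was written with earlier results of these data known. The symbols are those of the deposited table, and RefSeq's name table for assembly version 10.1 held 37 of the 39 accessions. It gives other symbols for 4 rows: nov is ccn3, cyr61 is ccn1, ctgf is ccn2 and lect1 is cnmd. The rule also covered further laminin chains, fibrillins, elastin, periostin, tenascins and perlecan, but no row of the deposited table carried a matching symbol.

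Hearts were dissected from Xenopus laevis tadpoles at stage 44 to 45, and their polyadenylated RNA was sequenced. The control-MO group was taken from embryos given a control morpholino, and the Tcf21-MO group from siblings given one against tcf21, and both were raised at 16 to 23 °C after injection at fertilization. A morpholino is a synthetic antisense oligomer, so all embryos carried one, and the labels call the second group Tcf21-depleted without saying whether translation or splicing was blocked. Each group was 1 library of 70 to 100 pooled hearts, so nothing below was checked in replicates, and each ratio describes this pair of libraries rather than the treatment.

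The extracellular matrix of the heart holds basement membranes around muscle and endothelial cells, a hyaluronan-rich jelly between muscle and endocardium, and an interstitial network of collagen fibrils, microfibrils and their binding proteins. Proteoglycans carry glycosaminoglycan chains that bind water and growth factors, and matricellular proteins modulate how cells attach and signal rather than building the scaffold. Tcf21 is a transcription factor of the epicardium, and in mouse it is needed for the formation of cardiac fibroblasts, a main source of interstitial matrix.

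The control library held 17636925 reads and the Tcf21-MO library 17767221. Ratios below are of Tcf21-MO over control-MO after scaling with edgeR's TMM factors, with 95% exact binomial intervals that cover counting error only. Levels are given as CPM, the read count relative to the scaled depth of its library, or as RPKM, which is CPM divided by the transcript length in kb, so that levels of different genes can be set side by side. Rows with at least 20 reads over both libraries were compared, 8132 in all. The tcf21 transcript itself had 1266 and 3738 reads and a ratio of 3.01 (2.82 to 3.21), a level that does not check the label, since a morpholino need not lower its target's RNA. Of the heart muscle markers, 8 of 10 were measured and none was at 0, with summed levels of 63506 and 45896 CPM.

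Most of these matrix transcripts were modestly higher in the Tcf21-MO library, and a small set that includes versican, lumican and decorin was lower. Of the 37 rows past the floor, 3 were at least 2-fold higher with an interval above 1, namely thbs3, nov and sdc3, and 0 were 2-fold lower. Over all rows compared, 2.67% were 2-fold higher and 2.40% 2-fold lower by the same rule. When scaled to the total count, 1 of the 37, thbs3, passed 2-fold upward, where 2.41% of all rows did, since nov and sdc3 lay near the limit. At any size of difference, 25 of the 37 had an interval above 1, where the background was 29.8%, and 5 had one below 1, where it was 28.4%. Counting intervals narrow with read number, and the members had a median of 2980 reads against 1064 for all rows compared. In all, 32 of the 37 ratios lay above 1, against 50.4% of all rows. The median log2 ratio of the members was 0.21 (95% order-statistic interval 0.16 to 0.45) and that of all rows 0.00. That interval treats the rows as independent, though some are copies of one gene that can share reads. It is no test against all rows. Most differences were small, with 78.4% of the members within 1.5-fold, near the 84.3% of all rows. Because whole hearts were pooled, more cells of a type and more RNA per cell cannot be told apart.

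Together the members took 0.692% of all reads in the control library (Clopper-Pearson interval 0.689 to 0.696) and 0.894% in the Tcf21-MO library (0.889 to 0.898). The collagen-binding matricellular gene sparc alone accounted for 41.0% of these reads under control-MO and 42.4% under Tcf21-MO. Without sparc the members took 0.409% and 0.515% of all reads, so the share was higher under Tcf21-MO with and without that transcript. The members were more abundant than most transcripts, with a median control level of 34.5 RPKM against 13.4 for all rows compared. The control level in RPKM and the log2 ratio had a rank correlation of 0.09 over the 37 members and 0.01 over all rows. Control reads enter both the level and the ratio, so these values cannot show that the 2 are unrelated. Both correlations come from 1 pair of libraries and are descriptions only.

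**Figure D1:**
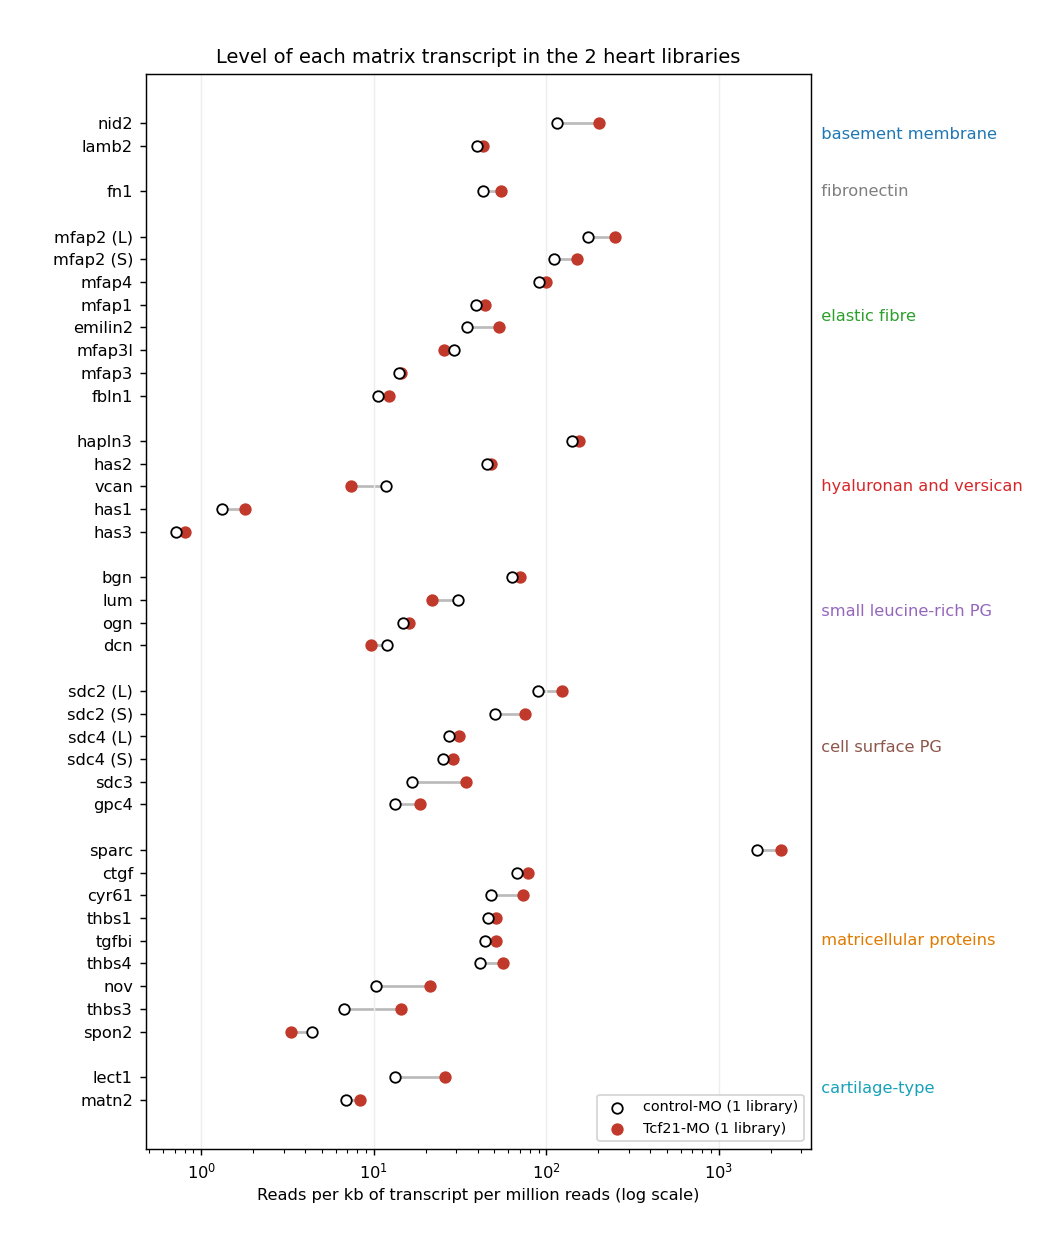
Level of each matrix transcript in the control-MO library (open circles) and the Tcf21-MO library (filled circles), in RPKM on a log axis, grouped by role (PG, proteoglycan; L and S, homeologs). The 37 rows with at least 20 reads are drawn; sparc lies far to the right, from 1668 to 2285, and vcan, lum, dcn, spon2 and mfap3l are the rows whose filled circle lies to the left.

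Among the basement membrane genes, nidogen and laminin transcripts differed in size of change. The nid2 gene encodes nidogen 2, which links the laminin and collagen IV networks, and its reads numbered 9928 under control-MO and 17192 under Tcf21-MO. Its level was 115 and 202 RPKM, a ratio of 1.76 (1.72 to 1.81), at rank 358 from the top of the 8132 rows. The laminin beta 2 chain gene lamb2 had 5798 and 6148 reads, 39.7 and 42.9 RPKM, with a ratio of 1.08 (1.04 to 1.12). The intervals of the 2 genes did not overlap, and the level of nid2 relative to lamb2 was higher under Tcf21-MO.

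The fibronectin gene fn1, whose product forms the early fibrils on which other matrix assembles, had 6380 and 7991 reads, with a ratio of 1.28 (1.23 to 1.32). Per kb it stood at 43.0 and 54.8 RPKM, close to lamb2 in the control and well below sparc.

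Elastic fibre and microfibril genes lay mostly above 1. Of 8 rows, 6 had an interval above 1, with mfap1 among them, and 1, mfap3l, had one below. Over all rows these shares were 29.8% and 28.4%. None of the 8 reached 2-fold, and the median log2 ratio was 0.20 (order-statistic interval -0.19 to 0.61, which includes 0). The elastic fibre glycoprotein gene emilin2 was the highest, with 3383 and 5084 reads and a ratio of 1.53 (1.47 to 1.60). The mfap2 gene encodes a small glycoprotein that binds fibrillin microfibrils, and both of its homeologs were higher. The L copy had 4092 and 5791 reads, a ratio of 1.44 (1.38 to 1.5), and the highest level per length of the class in both libraries, 174 and 250 RPKM. The S copy had 2673 and 3568 reads, a ratio of 1.36 (1.29 to 1.43). Homeologs are the paired gene copies of the L and S subgenomes of Xenopus laevis, and a read that fits both copies may have been given to either row.

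The remaining rows of this class changed little. The fibulin gene fbln1, whose product binds fibronectin and basement membranes, had 649 and 750 reads and a ratio of 1.18 (1.06 to 1.31). For the microfibril-associated gene mfap4 the reads were 1698 and 1833 and the ratio 1.10 (1.03 to 1.18). Other rows share the mfap name without a settled place in the matrix: mfap1 is known as a spliceosome protein and mfap3l as a membrane protein. They had ratios of 1.12 (1.05 to 1.20) and 0.875 (0.798 to 0.959), and mfap3 had one of 1.03 (0.889 to 1.20). Without mfap1, mfap3 and mfap3l, the median log2 ratio of the other 34 members was 0.26.

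The hyaluronan and versican matrix, the material of the cardiac jelly, held the lowest member. The vcan gene encodes versican, a large chondroitin sulfate proteoglycan that binds hyaluronan, with 2011 reads under control-MO and 1233 under Tcf21-MO. At 11.8 and 7.34 RPKM it was 1.60-fold lower (1.49 to 1.72), at rank 473 from the bottom of the 8132 rows. None of the other 4 rows of this class lay below 1. The link protein gene hapln3, known in Xenopus for a role in heart formation, had 7412 and 7981 reads and a ratio of 1.10 (1.06 to 1.13).

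Hyaluronan itself is made at the plasma membrane by 3 synthases, and none of their intervals excluded 1. The has2 gene, the main synthase of the embryonic mouse heart, had 2492 and 2583 reads and a ratio of 1.06 (0.999 to 1.12). The has1 row, with 69 and 93 reads, had a ratio of 1.37 (0.995 to 1.90). For has3 the reads were 29 and 32, and its interval ran from 0.658 to 1.93, so a 1.5-fold difference was not detectable at this depth. Per length has2 stood far above its relatives, at 45.1 RPKM in the control against 1.31 RPKM for has1 and 0.712 RPKM for has3. In each library hapln3 was far more abundant per length than vcan. It stood at 140 against 11.8 RPKM in the control and 154 against 7.34 in the Tcf21-MO library. The transcript listed for hapln3 is 2954 bp long and that for vcan 9573 bp, which bears on these levels but not on the ratios.

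Small leucine-rich proteoglycans, which coat collagen fibrils and set their spacing, were split. Lumican (lum), with 720 and 502 reads, was 1.41-fold lower (1.25 to 1.58). Decorin (dcn), with 611 and 485 reads, was 1.24-fold lower (1.10 to 1.40). Biglycan (bgn), the most abundant of them at 63.2 and 70.4 RPKM, had 3057 and 3343 reads and a ratio of 1.11 (1.06 to 1.17). The osteoglycin gene ogn, with 1138 and 1210 reads, had a ratio of 1.08 whose interval, 0.998 to 1.18, included 1. Decorin and lumican thus lay on the other side of 1 from biglycan, and none of the 4 reached 1.5-fold.

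Cell surface heparan sulfate proteoglycans, the coreceptors through which cells hold growth factors and matrix, were higher in all 6 rows. Of these, 4 had an interval above 1, as did 29.8% of all rows. The 6 rows had a median log2 ratio of 0.46 (order-statistic interval 0.18 to 1.03, which is their full range). They are of 4 genes, since sdc2 and sdc4 each enter with L and S copies that can share reads. The transmembrane syndecan gene sdc3 had 433 control and 869 Tcf21-MO reads, 16.7 and 34.1 RPKM. It was 2.04-fold higher (1.82 to 2.30), at rank 206 from the top of the 8132 rows. When the libraries were scaled to the total count, its log2 ratio was 0.99 instead of 1.03, just under 2-fold.

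The ratios of syndecan 2 and syndecan 4 were smaller, with intervals that did not overlap that of syndecan 3. The sdc2 L copy had 2409 and 3232 reads, a ratio of 1.37 (1.30 to 1.44), and the highest level per length of the class, 89.8 and 123 RPKM. The S copy had 1042 and 1531 reads, a ratio of 1.5 (1.38 to 1.62). The sdc4 L and S rows had 301 and 338, and 262 and 292 reads, with ratios of 1.14 (0.976 to 1.34) and 1.13 (0.957 to 1.35), and these intervals included 1. The listed sdc4 transcripts were short, 618 and 582 bp. The glypican gene gpc4, whose lipid-anchored product acts in Wnt signalling in Xenopus gastrulation, had 599 and 819 reads and a ratio of 1.39 (1.25 to 1.55).

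**Figure D2:**
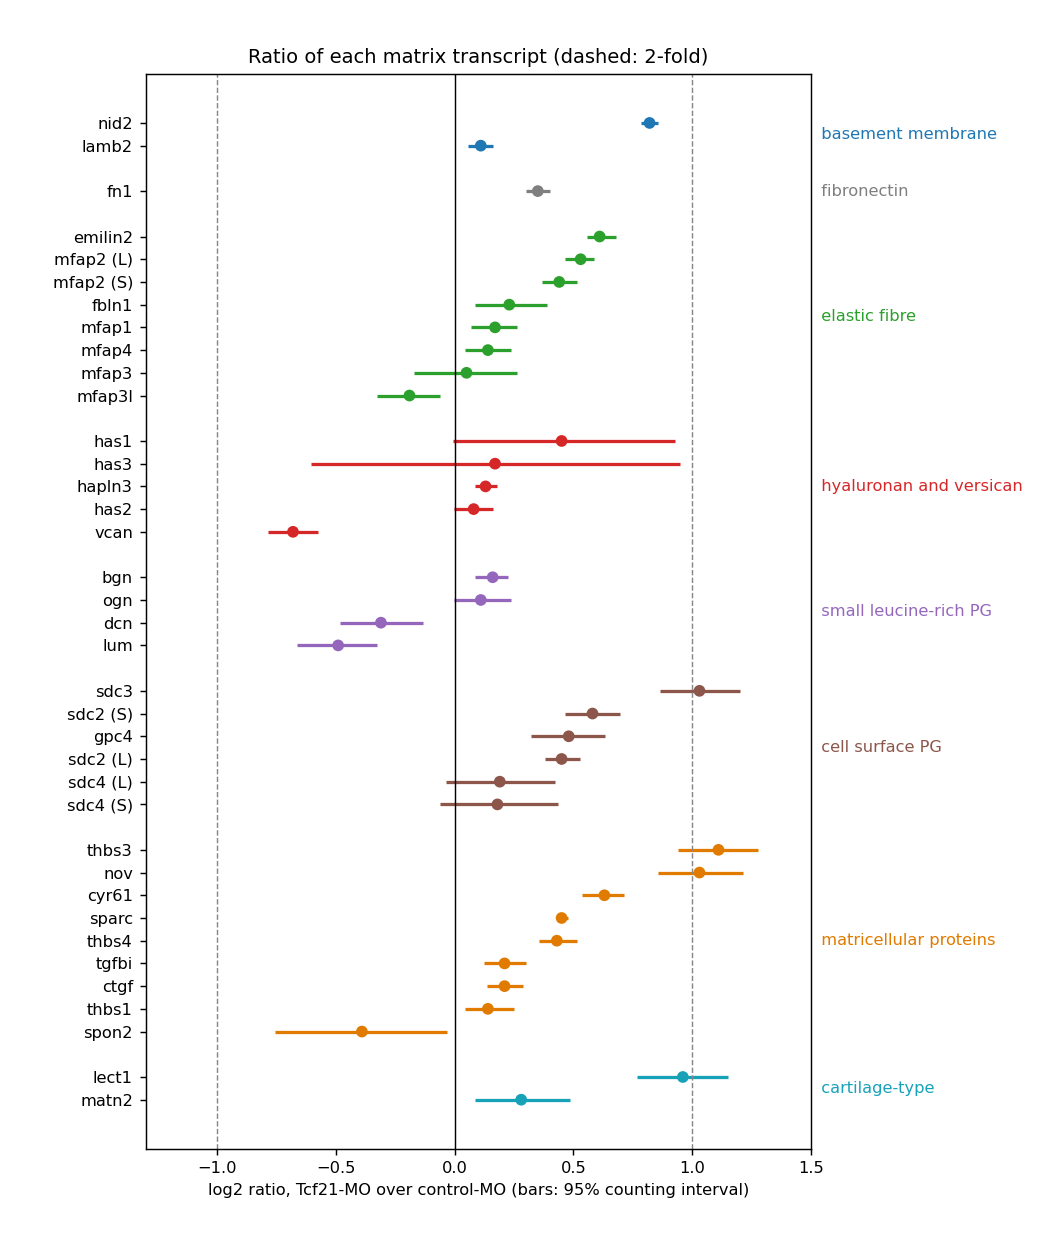
log2 ratio of Tcf21-MO over control-MO for the 37 rows past the floor, grouped by role, with 95% counting intervals as bars, the solid line at a ratio of 1 and dashed lines at 2-fold. Only thbs3, nov and sdc3 lie past the right dashed line, with bars that cross it, lect1 lies just inside it, and vcan is the lowest row.

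Matricellular genes held 2 of the 3 members past 2-fold and had a median log2 ratio of 0.43 (order-statistic interval 0.14 to 1.03). Of 9 rows, 8 lay above 1 and 1 below, each with an interval that excluded 1, where the shares of all rows were 29.8% and 28.4%. The 3 thrombospondins, secreted calcium-binding glycoproteins, spread widely. The thbs3 row was the highest of all members, with 422 and 892 reads, 6.71 and 14.4 RPKM and a ratio of 2.15 (1.92 to 2.42). The thbs4 row, known in mouse to be induced in the strained heart, had 2330 and 3089 reads and a ratio of 1.35 (1.28 to 1.43). The thbs1 row had 1429 and 1551 reads and a ratio of 1.11 (1.03 to 1.19). The 3 intervals did not overlap. In the control library thbs1 and thbs4 were at similar levels, 46.1 and 41.4 RPKM, and thbs3 was the least abundant of the 3, also in the Tcf21-MO library. The transcript listed for thbs1 is 1734 bp long, against 3520 bp for thbs3, which bears on its level per length but not on its ratio.

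The CCN genes encode secreted modular proteins that bind integrins and heparan sulfate, and their ratios ran in the order nov, cyr61, ctgf. The nov row had 384 control and 771 Tcf21-MO reads, 10.3 and 21.2 RPKM. It was 2.04-fold higher (1.81 to 2.32), and its log2 ratio was 1.03, or 0.99 when scaled to the total count. The cyr61 row had 1703 and 2583 reads and a ratio of 1.54 (1.45 to 1.64), and the ctgf row 2862 and 3246 reads and a ratio of 1.16 (1.10 to 1.22). In the control library the order of level was the reverse, with ctgf at 67.9, cyr61 at 47.5 and nov at 10.3 RPKM. The intervals of the cyr61 and ctgf ratios did not overlap. Both genes are known targets of the coactivator YAP in mammalian cells, and a part of YAP in these values was not tested.

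The other matricellular rows had ratios from 0.763 to 1.37. With 50051 and 67326 reads, sparc was the most abundant member by far, at 1668 and 2285 RPKM, and had a ratio of 1.37 (1.35 to 1.39). It was also the single member among the 50 most abundant transcripts. The integrin-binding gene tgfbi, named for its induction by TGF-beta in mammalian cells, had 1937 and 2205 reads and a ratio of 1.16 (1.09 to 1.23). The secreted spondin gene spon2 was the 1 row of the class below 1, with 151 and 113 reads, 1.31-fold lower (1.02 to 1.69).

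Of the 4 member rows of the matrilins and lect1, 2 passed the floor, and lect1 had the larger ratio. It encodes chondromodulin, an inhibitor of vessel growth made in cartilage and, in mouse and human, in the avascular heart valves. Its reads numbered 340 under control-MO and 648 under Tcf21-MO, 13.3 and 25.8 RPKM, a ratio of 1.94 (1.7 to 2.22), just inside the 2-fold limit. The 2 rows listed as matn2, a matrilin of many tissues, had 372 and 445 reads (ratio 1.22, 1.06 to 1.40) and 6 and 7 reads. The matn1 row, cartilage matrilin, had 5 and 0 reads, and a count of 0 allows up to 3 counts, or 0.171 CPM. The second matn2 row and matn1 were under the floor of 20 reads, and no ratio is given for them.

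Other cartilage markers were also present in the dissected hearts. Of 14 listed markers, 8 were measured, in 10 rows, with summed levels of 606 and 794 CPM, and lect1 and matn1 are among them. Of the 9 rows past the floor, 4, with lect1 itself among them, had an interval above 1 and 1 had one below. Over all rows these shares were 29.8% and 28.4%. The collagen genes col9a2 and col9a3 had ratios of 2.21 (1.85 to 2.66) and 1.87 (1.71 to 2.04), while col9a1 had 404 and 326 reads, a ratio of 0.822 (0.708 to 0.953). The 2 sox9 rows, of a cartilage and valve transcription factor, had ratios of 1.13 and 0.897 with intervals that included 1. The most abundant of these markers, the 2 rows of the cartilage collagen gene col2a1, had 5420 and 7528 reads with a ratio of 1.41 (1.37 to 1.47), and 3279 and 3172 reads with a ratio of 0.985 (0.938 to 1.03). The part of cartilage in the lect1 value was not tested.

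**Figure D3:**
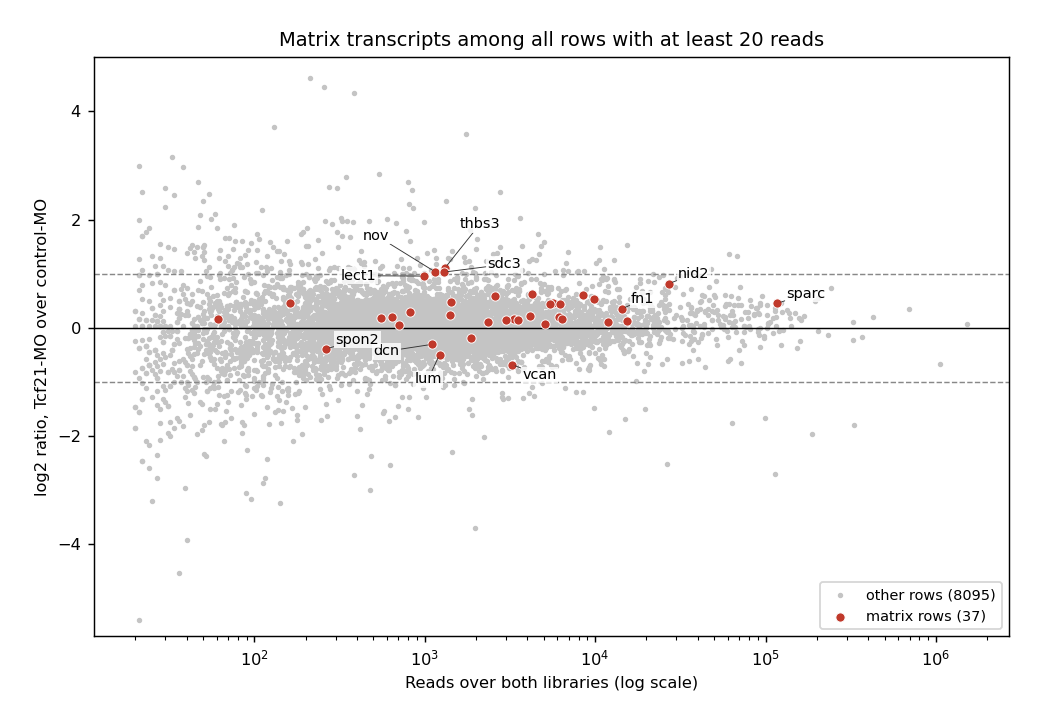
log2 ratio of Tcf21-MO over control-MO against reads over both libraries (log axis) for the 8132 rows past the floor, with the 37 matrix rows as large points, the solid line at a ratio of 1 and dashed lines at 2-fold. The matrix rows lie within the cloud of other rows, mostly above 0, and the widest spread of other rows is at low counts, where few matrix rows lie.

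Homeolog rows of mfap2, sdc2 and sdc4 gave similar ratios. The log2 ratios of the L and S copies differed by 0.08 for mfap2, 0.13 for sdc2 and 0.01 for sdc4. Over 617 symbols with 2 rows the median difference was 0.21 and the third quartile 0.41. Among other listed genes with 2 rows, tgm2 had ratios of 1.68 and 1.05, and wt1 2.46 and 2.39. Only 4 of the 35 member symbols had 2 rows. The ratios of the others, vcan and thbs3 among them, describe a single row each. The share of sdc2 reads from the L copy was 69.8% (68.2 to 71.3) in the control and 67.9% (66.5 to 69.2) in the Tcf21-MO library, and for mfap2 it was 60.5% (59.3 to 61.7) and 61.9% (60.9 to 62.9). Per kb, the L copy of sdc2 had 64.1% and 61.9%, a smaller share because its listed transcript is longer. For sdc4 the L share, 53.5% (49.2 to 57.6) and 53.7% (49.7 to 57.6), could not be separated from an even split. These pairs are not independent genes, since their rows can share reads.

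Genes that build or clear the glycosaminoglycan chains of these proteoglycans shifted by small amounts. Of 21 rows of synthesis genes, for 20 of 46 listed genes, 0 passed 2-fold in either direction, and the median log2 ratio was 0.22. An interval above 1 was found for 12 and one below for 2, where the shares of all rows were 29.8% and 28.4%. The heparan sulfate polymerase gene ext1 was the highest, with 1201 and 1815 reads and a ratio of 1.54 (1.43 to 1.66), and its partner ext2 had a ratio of 1.31 (1.20 to 1.44). The sulfotransferase gene hs3st1 was the lowest, with 373 and 219 reads, 1.67-fold lower (1.41 to 1.99). Of 7 rows of turnover genes, for 6 of 25 listed genes, 0 passed 2-fold, 5 had an interval above 1 and 1 one below. Their median log2 ratio was 0.51. They include both hyal2 rows, of a hyaluronidase, with ratios of 1.92 (1.76 to 2.11) and 1.44 (1.35 to 1.55), and adamts1, of a protease that cuts versican, with 2645 and 3711 reads and a ratio of 1.43 (1.36 to 1.5). The sulfatase gene sulf2, whose product edits heparan sulfate, was the lowest at 0.814 (0.706 to 0.938).

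Receptors and assembly enzymes of the matrix were compared in the same way. Of 12 rows listed as receptors, for 11 of 26 listed genes, 0 passed 2-fold, 7 had an interval above 1 and 3 one below. Over all rows the shares above and below were 29.8% and 28.4%. The receptor rows had a median of 3226 reads, against 1064 for all rows compared, and a median log2 ratio of 0.25. The 3 below include rpsa, whose symbol names a ribosomal protein, at 0.961 (0.953 to 0.970). The integrin beta 1 rows itgb1 had ratios of 1.88 (1.84 to 1.93) and 1.47 (1.42 to 1.51), whereas dag1, which encodes dystroglycan, a laminin receptor of muscle, was 1.64-fold lower (1.55 to 1.73), with 3664 and 2194 reads. There were 6 rows of elastic fibre assembly and crosslinking genes, for 5 of 12 listed genes. Of these, 1 was 2-fold higher and all 6 had an interval above 1, where the shares of all rows were 2.67% and 29.8%. The 6 rows had a median of 10556 reads, so even small differences gave an interval above 1. Their median log2 ratio was 0.51. The 2-fold row was the lysyl oxidase gene loxl2, at 2.03 (1.87 to 2.21), and the lowest was 1 of the 2 rows of the transglutaminase gene tgm2, at 1.05 (1.02 to 1.08).

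Matrix genes that the symbol rule did not match lay on both sides of 1. Some belong to the chosen families by product. The small leucine-rich proteoglycan gene epyc had 23 and 17 reads, with a ratio of 0.758 (0.378 to 1.47). The CCN gene wisp2, which the name table calls ccn5, had 7 and 2 reads, under the floor. Of 56 listed genes 15 were measured, with 12 rows past the floor. Of these, 1 was 2-fold higher and 0 were 2-fold lower, where the shares of all rows were 2.67% and 2.40%. By direction, 6 lay on each side of 1, and the median log2 ratio was -0.04. The 2-fold row was pcolce, which encodes an enhancer of procollagen processing, with 355 and 735 reads and a ratio of 2.11 (1.86 to 2.40). The latent TGF-beta binding protein gene ltbp1 had a ratio of 1.66 (1.57 to 1.76). The hyaluronan-binding proteoglycan gene bcan, a relative of vcan known from brain, had 153 and 78 reads and was the lowest, by 1.92-fold (1.46 to 2.56). Another hyaluronan-binding gene, tnfaip6, was 1.64-fold lower (1.29 to 2.11), from 181 and 108 reads. Of the 5 related lists, 4 thus had a median above 0, and none of the medians was tested against the rest of the table. The order-statistic intervals of the turnover and receptor medians, -0.30 to 0.94 and -0.06 to 0.71, included 0. Those of the synthesis and the assembly and crosslinking medians, 0.02 to 0.39 and 0.07 to 1.02, did not. With so few rows, the turnover and the assembly and crosslinking intervals are the full ranges of their rows, both tgm2 rows included. All these intervals treat rows of the same pair of libraries as independent, so whether they include 0 is no test.

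**Figure D4:**
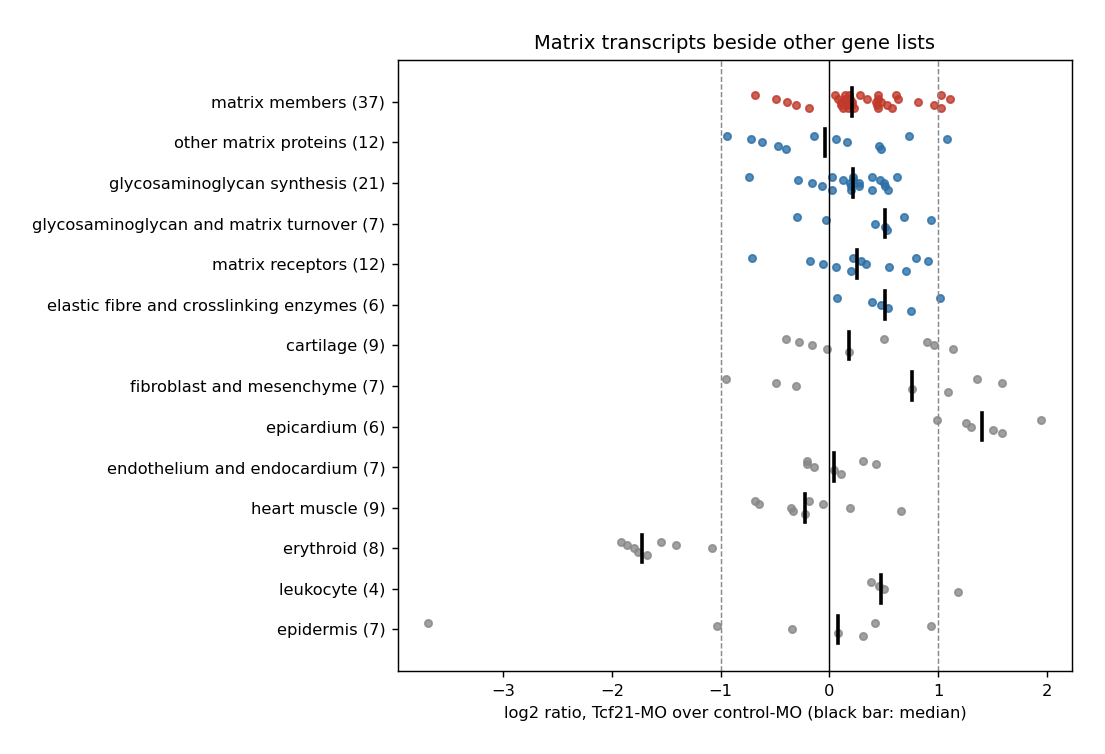
log2 ratio of Tcf21-MO over control-MO for each row past the floor of the matrix members (red), of related matrix lists (blue) and of cell type marker lists (grey), with the number of rows in parentheses, black bars at medians and dashed lines at 2-fold. The epicardium rows lie at the right, the erythroid rows at the left, and the members in between with a median of 0.21.

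Markers of several cell types also differed between the libraries. All 6 epicardium rows were higher, 5 of them 2-fold, with summed levels of 270 and 702 CPM and none at 0. Of 7 rows of fibroblast and mesenchyme genes, 3 were 2-fold higher and 0 lower, with sums of 3037 and 6291 CPM. Over all rows, 2.67% were 2-fold higher and 2.40% 2-fold lower. Most of the fibroblast and mesenchyme sums came from col1a2 (970 and 2492 CPM), col1a1 (864 and 1834) and col3a1 (975 and 1653). The tcf21 row, the target of the morpholino, is in both lists and among the 2-fold higher rows of each. In the fibroblast and mesenchyme list tcf21, col1a2 and col1a1 were the 2-fold rows, whereas pdgfra, lum and dcn were lower, pdgfra with 1459 and 739 reads at 1.94-fold lower (1.77 to 2.12). The list thus holds the members lum and dcn on the side of pdgfra and not on that of the collagens.

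The other cell types moved less or the other way. All 8 erythroid rows were 2-fold lower, where 2.40% of all rows were, with summed levels of 18342 and 5297 CPM. Of 9 heart muscle rows, 7 had an interval below 1, as did 28.4% of all rows. Those 9 rows had a median of 98107 reads, against 1064 for all rows compared, so small differences gave an interval below 1. The 7 ratios ran from 0.626 for myh6 to 0.960 for a myl3 row. The peptide hormone genes nppb and nppa went the other way, with ratios of 1.58 (1.54 to 1.63) and 1.14 (1.11 to 1.17). Endothelial rows, 0 of 7 past 2-fold, had sums of 468 and 455 CPM, and the 4 leukocyte rows, of which tyrobp passed 2-fold upward, had 153 and 201 CPM. Epidermal rows were mixed, with summed levels of 836 and 876 CPM. Of the 7 past the floor, 4, all of them listed as keratins, had an interval above 1, as did 29.8% of all rows. The name table gives these 4 other symbols: krt14 is ouro2, krt5.7 is krt7, and krt5.5 and krt5.6 are krt62. Another 2 rows were 2-fold lower, grhl3 and the intelectin gene itln1, the latter 12.9-fold lower (10.9 to 15.5) from 1822 and 138 reads. The krt5.4 row, under the floor, had 0 and 2 reads. The part of these cell types in the values of the matrix members was not tested.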

How the data were processed

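Per the file headers, the authors deposited raw counts of reads, with no normalization, for 8879 RefSeq transcripts and 2 libraries, beside each transcript's length in bp, another kind of value. Tools named in the submitters' processing notes are Bowtie2 (2.0.0.6), SAMtools (0.1.18.0) and CASAVA (1.7), without their roles. How reads were counted, on which build and strand, and what was done with reads matching several transcripts is not given in the sources used here, so values of close copies are uncertain. The authors' own fold changes were left out.

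Scaling used TMM factors from the whole table (edgeR 4.0.16, R 4.3.3), 1.013 for control-MO and 0.987 for Tcf21-MO. Each ratio has 0.5 counts added to both libraries and a 95% Clopper-Pearson interval (SciPy 1.17.1) given the total of both counts. Reads carry no molecular identifiers and are not independent molecules, so intervals and limits cover counting error only. With 1 library per group no p-value can be had. The procedure was run on simulated data with counting error only, which cannot check how far replicate libraries would differ. DESeq2 1.42.0 size factors were an alternative.

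Every member could be named, with fullest values for vcan, lect1, thbs1, members past 2-fold and the extremes of each role. Of the 13 other lists, those of matrix and cartilage genes are given by members past 2-fold and the extremes with at least 50 reads, and those of other cell types mainly by counts and sums; further list genes were named after their values were seen. Members, roles and lists were chosen with earlier results of these data known.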

Additional observations from a re-analysis of the deposited data

How the results depend on the processing

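No paired analysis was possible because each group was 1 library, and no library could be left out. No called ratio of the 37 members past the floor changed direction under the alternatives run; has2 and mfap3, whose intervals include 1, had log2 ratios of -0.01 and -0.04 when scaled to the total without the 50 most abundant transcripts, an alternative chosen after seeing the data. That scaling moved the median of all rows to -0.08 and of the members to 0.13, and left 18 of the 37 members with an interval above 1 (22.5% of all rows) and 5 below (37.6%). The count of 2-fold higher members was 1, thbs3, under it and when scaled to the total count, with nov and sdc3 just under 2-fold. Of all rows, 2.21% and 2.41% were 2-fold higher in these settings, in that order. The member count was 7 at 1.5-fold, and 0 at 4-fold, since the highest member ratio was 2.15. At 1.5-fold 1 member, vcan, was lower. Of all rows, 7.82% were higher and 6.67% lower at 1.5-fold, and 0.406% were higher and 0.418% lower at 4-fold. With DESeq2 size factors, other floors, summed rows and a pseudocount of 2, the 3 members past 2-fold were the same and the member median stayed between 0.21 and 0.22. Without the 50 most abundant transcripts, which include sparc, the members took 0.594% of control and 0.723% of Tcf21-MO reads. Depth limits has1 and has3, and 2 members could not be compared.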
